A study of Mus musculus with 4 samples.

Results

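The genes described here are 8 transcription factors of naive T cells, Lef1, Tcf7, Satb1, Bach2, Bcl11b, Tox, Ets1 and Id3, taken by name, together with each non-coding gene that shares exon bases with 1 of them on the opposite DNA strand. Such a gene was annotated for 4 of the 8, Gm43352 for Lef1, Gm6934 for Satb1, Bach2os for Bach2 and Gm11802 for Tox, which makes 12 of the 50600 genes in the tables. Fragments per gene were counted in 4 RNA-seq libraries of mouse primary cells labelled T-helper 2, from strain C57BL/6NJ, with no allele or agent named. All 4 form 1 group, numbered as biological replicates 1 to 4, and carry the same donor identifier. Age is given as unknown and sex as not collected, and whether the cultures came from separate mice is not stated, so p-values measure the spread between these libraries, which may be technical. A linked protocol concerns the differentiation of CD4 T cells, and the file headers carry a Th2 name with 0 hours, under a time course of Th1 and Th2 cells. The assay is labelled total RNA, although the linked library protocol carries a poly(A)+ name.

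A naive T cell has left the thymus and has not yet met its antigen. Tcf7 and Lef1 encode TCF1 and LEF1, paired DNA-binding proteins that open chromatin in thymocytes and keep mature cells in an uncommitted state. Satb1 folds chromatin into loops, Bcl11b holds cells to the T lineage, Ets1 sustains receptor and survival genes, Bach2 restrains effector genes, and Id3 blocks E proteins from binding DNA, while Tox acts in thymic CD4 commitment and later in exhausted cells. Antisense and divergent transcripts often start near the promoters of such genes, and a count on the opposite strand is read as theirs only if the counting strand matches the library.

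The 4 libraries held 1452053 to 2351916 counts, and 3 counts, taken as the limit for a gene at 0, were 1.28 to 2.07 CPM (the count scaled to 1e6 per library). Between 87.6% and 89.6% of all counts lay in genes whose exons overlap an exon on the other strand, and 9709 of 21764 protein-coding genes had no count in any library. In each library the gene with the most counts was a ribosomal RNA locus, with 3.47% to 16.8% of the total. All 10 T cell markers reached a mean of 1 TPM, a count per exon length with the same sum in each library. Their summed level was 410 to 572 TPM. The highest was Cd247 with 174 ± 31.2 TPM, whose exons, like those of Cd3e, overlap an exon on the other strand. Of the 8 markers of T-helper 2 cells 4 reached 1 TPM. These were Il17rb with 17.3 ± 1.94, Ptgdr2 with 9.97 ± 1.43, Il4 with 7.96 ± 5.76 and Gata3 with 5.87 ± 2.08 TPM (SD, n = 4). Exons of Ptgdr2 and Gata3 also overlap an exon on the other strand. The cytokine genes Il5 and Il13 had 0 counts. Among the markers of other cell types, 2 of 7 for B cells, which also use Ets1, Bach2 and Lef1, reached that level, with 57.0 to 65.4 TPM summed. These were Cd79a with 39.0 ± 3.91 and Ighm with 22.7 ± 7.53 TPM, while Cd79b, Ms4a1, Pax5 and Ebf1 were among those at 0. For myeloid cells 3 of 7 did, with Lyz2, Adgre1 and S100a8 at 0 and 119 to 136 TPM summed. Most of that sum was Csf1r with 107 ± 10.7 TPM, whose exons overlap an exon on the other strand. Tyrobp had 14.1 ± 4.89 and Cd68 4.60 ± 2.84 TPM. For mast cells and basophils 2 of 4 did, with Mcpt4 and Fcer1a at 0 and 37.8 to 64.3 TPM summed. Cpa3 had 42.4 ± 11.9 and Hdc 3.66 ± 0.883 TPM. For erythroid cells 2 of 5 did, Alas2 with 12.1 ± 5.07 and Klf1 with 5.01 ± 2.80 TPM, with Hbb-bs and Hba-a1 among those at 0. For stroma and endothelium 1 of 3 did, for CD8 T cells 1 of 2, and for natural killer cells 0 of 4. The part of such cells in the results below was not tested.

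Counting used 1 strand setting for all genes, and the library kit is not given in the sources used here. Within a pair, fragments that come from an opposite-strand gene and fragments of the factor gene that were assigned to the wrong strand therefore cannot be told apart. Below, "counts of" a gene means fragments assigned to its annotated strand. Protein-coding genes without an opposite gene within 5 kb, 9609 besides the factors, held only 2.78% to 3.81% of all counts. Whether the strand setting matches the library was not tested.

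The bases in which both strands carry an exon define the pairs, but the strands were compared over all exons of each gene. These shared bases are 13.7% of the exon bases of Lef1, 5.40% of Bach2, 3.42% of Tox and 0.673% of Satb1. In Lef1 the shared stretch is the whole of exon 1, 1208 bases of chr3:131110471-131111678 on mm10, of which 1001 are untranslated and the last 207 are coding. Gm43352, a single exon of 3065 bases, runs from -1.445 kb to 1.619 kb around the Lef1 start, so that it covers the promoter as well. In Bach2 the shared bases lie deep inside the gene, in exon 5, where 2 of the 5 exons of Bach2os overlap it by 232 and 305 bases, all coding. The coding parts are shown because every fragment over them could be counted for either gene, depending only on its assigned strand. They are read on the strand of the factor, from the GENCODE release 21 transcripts, at chr3:131111472-131111678 (plus strand, with the start codon in capitals) and chr4:32561778-32562009 (plus strand, the shorter of the Bach2 segments).
Lef1 coding overlap: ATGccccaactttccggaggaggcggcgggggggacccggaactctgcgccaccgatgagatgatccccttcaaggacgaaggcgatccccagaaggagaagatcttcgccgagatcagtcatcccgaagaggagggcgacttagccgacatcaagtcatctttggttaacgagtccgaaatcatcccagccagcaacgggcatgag
Bach2 coding overlap: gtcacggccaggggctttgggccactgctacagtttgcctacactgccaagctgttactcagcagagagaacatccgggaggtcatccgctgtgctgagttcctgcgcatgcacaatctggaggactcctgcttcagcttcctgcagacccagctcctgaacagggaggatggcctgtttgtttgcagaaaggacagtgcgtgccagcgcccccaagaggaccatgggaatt

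Gm6934, 1905 bases in 1 exon, spans the Satb1 start in the same way, from -1.433 to 0.471 kb, but shares only the 128 untranslated bases of an exon 1 used by 1 Satb1 transcript. Gm11802 reaches Tox at its far end, where 260 bases of exon 9, all but 1 of them untranslated, are shared with an exon of Gm11802. The promoters under Gm43352 and Gm6934 are printed because an opposite gene covers them. Both give the 250 bases before a RefSeq start of the gene, on the strand of the gene, at chr3:131110047-131110296 (plus strand) and chr17:51833291-51833540 (minus strand), from the RefSeq table for mm10, with motif matches in capitals.
Lef1 promoter: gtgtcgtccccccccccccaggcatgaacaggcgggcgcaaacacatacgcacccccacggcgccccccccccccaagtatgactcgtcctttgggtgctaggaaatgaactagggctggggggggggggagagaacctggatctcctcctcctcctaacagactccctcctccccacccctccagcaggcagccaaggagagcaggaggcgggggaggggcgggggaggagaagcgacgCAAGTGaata
Satb1 promoter: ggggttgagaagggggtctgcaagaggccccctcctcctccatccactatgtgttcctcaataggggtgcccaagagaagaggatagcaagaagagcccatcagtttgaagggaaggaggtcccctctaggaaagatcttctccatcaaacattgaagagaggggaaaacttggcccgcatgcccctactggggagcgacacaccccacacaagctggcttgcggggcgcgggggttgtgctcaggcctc

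Of the 8 factors, 6 have entries in that table (not Tox and Ets1), with 14 promoter windows, and an opposite gene covered 5 of the 14: 2 of Lef1, 2 of Tcf7 and 1 of Satb1. The Lef1 window is 66.4% G and C and that of Satb1 58%, against a median of 52.4% over 32851 promoters of equal length. Searched on both strands, the printed Lef1 window held 1 E box (CANNTG, found in 66.2% of all promoters) and no TCF/LEF core (CTTTGA, 13.8%), ETS core (CCGGAA, 12.03%) or AP-1 and BACH core (TGANTCA, 6.75%). The printed Satb1 window held none of the 4. A TCF/LEF core was found in 1 other window of Lef1 and in those of Bach2 and Bcl11b, and an ETS core in that of Bach2 and in 1 of Tcf7. These are matches of letters and say nothing of binding.

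**Figure D1:**
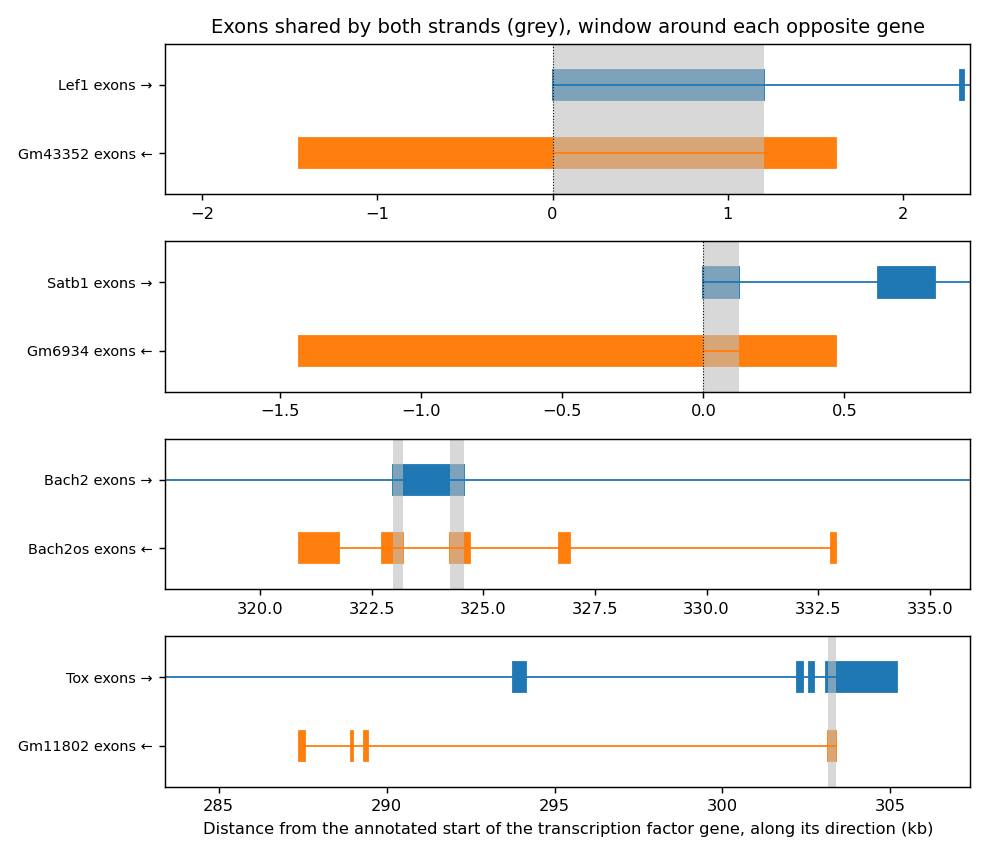
Exons of Lef1, Satb1, Bach2 and Tox (blue) and of the opposite gene (orange), in kb from the annotated start of the factor gene along its direction, with shared exon bases in grey and the start as a dotted line. Gm43352 and Gm6934 lie across a start, whereas Bach2os and Gm11802 lie 320.9 and 287.4 kb or more into the gene.

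Opposite to 3 of the 4 overlapped factors, far more fragments were counted than for the factor itself. Lef1 (ENSMUSG00000027985.14) had 335, 410, 263 and 203 counts in replicates 1 to 4, and Gm43352 (ENSMUSG00000106086.1) had 4023, 3853, 3185 and 2369. The groups of values did not overlap, and replicate 2 was highest for Lef1 while replicate 1 was highest for Gm43352. Lef1 thus received 8.27% (exact 95% interval 7.83 to 8.73%) of the fragments counted for the pair, or 152 ± 17.4 CPM against 1703 ± 123 CPM (SD, n = 4). Such intervals cover counting error only, because PCR copies were not told apart by molecular identifiers.

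Bach2, the repressor that shares DNA sites with AP-1, showed a wider gap. Bach2 (ENSMUSG00000040270.16) had 39, 92, 46 and 27 counts and Bach2os (ENSMUSG00000086150.1) had 1447, 1534, 1453 and 1208. In every library fewer than 6 in 100 fragments of the pair lay on the Bach2 strand, from 2.19% in replicate 4 to 5.66% in replicate 2, and 3.49% over all (exact 95% interval 3.03 to 3.99%). In CPM the means were 24.98 ± 9.77 for Bach2 and 730 ± 81.0 for Bach2os (SD, n = 4).

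Tox, an HMG-box factor, was the sparsest of the 4. Tox (ENSMUSG00000041272.11) had 15, 29, 9 and 3 counts, so that replicate 4 was at the limit that a count of 0 allows, and Gm11802 (ENSMUSG00000086052.1) had 589, 695, 557 and 419. The Tox strand held 2.42% of the fragments of the pair (exact 95% interval 1.83 to 3.13%). Gm11802 was even across libraries, at 288 ± 8.04 CPM, while Tox varied over 2.07 to 12.3 CPM.

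Satb1, the chromatin organiser, was the exception by count. Satb1 (ENSMUSG00000023927.15) had 226, 383, 268 and 163 counts and Gm6934 (ENSMUSG00000103753.1) had 149, 156, 176 and 144. Satb1 was higher in each library, although its lowest library was below the highest of Gm6934, and it held 62.5% of the fragments of the pair (exact 95% interval 60.1 to 64.8%). Its exons sum to 19027 bases, the longest of the 8 factors, and those of Gm6934 to 1905, so that per exon length the order turned: 13.7 ± 4.87 counts per kb for Satb1 and 82.0 ± 7.38 for Gm6934.

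**Figure D2:**
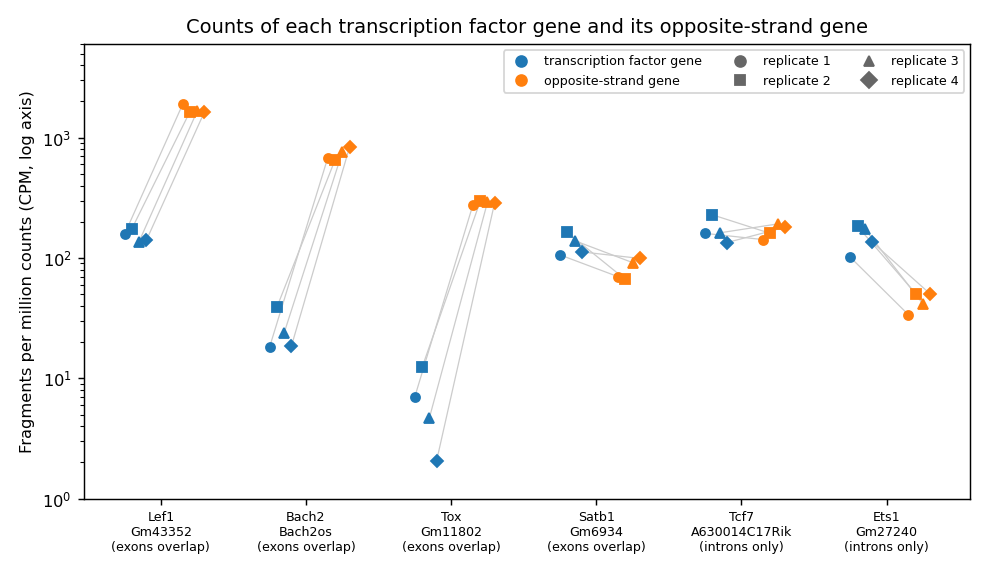
CPM (log axis) of each factor gene (blue) and of its opposite gene (orange) in 4 libraries, marked by shape and joined within a library. Gm43352, Bach2os and Gm11802 lie above their factor in every library, Gm6934 and Gm27240 below it, and A630014C17Rik and Tcf7 cross.

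Taken per exon length within each library, the opposite gene was denser in all 4 pairs. By edgeR's quasi-likelihood test over 1581 such pairs of the whole table, with Benjamini-Hochberg adjustment over all of them, Gm6934 was 6.25-fold denser than Satb1 (log2 2.64, adjusted p = 4.8e-09). Gm43352 was 32.2-fold denser than Lef1 (log2 5.01, edgeR adjusted p = 1.3e-14). Bach2os was 135-fold denser than Bach2 (log2 7.08, edgeR adjusted p = 4.0e-14), and Gm11802 515-fold denser than Tox (log2 9.01, edgeR adjusted p = 1.4e-13). The SD of the log2 ratio over the 4 libraries was 0.46 for Satb1, 0.17 for Lef1, 0.61 for Bach2 and 1.00 for Tox, and the direction was the same in 4 of 4 libraries for each. The density of the factor is the denominator of this ratio, so an inverse order of the 2 is partly built in. That density fell from Lef1 with 34.5 ± 10.2 counts per kb to Bach2 with 5.13 ± 2.86 and Tox with 1.84 ± 1.46. Satb1, denser than Bach2, had the lowest ratio and the sparsest opposite gene.

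These 4 calls have to be read against the table they come from. Over the 1581 pairs the opposite gene was called denser in 78.2% and the coding gene in 13.5%, so 4 of 4 is near the background and is no result about the factors. The median log2 ratio of all pairs was 5.41, with quartiles of 2.02 and 7.46. Satb1 and Lef1 lay below that median, at percentiles 28.7 and 45.5 of the pairs, and Bach2 and Tox above it, at 70.3 and 90.0.

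**Figure D3:**
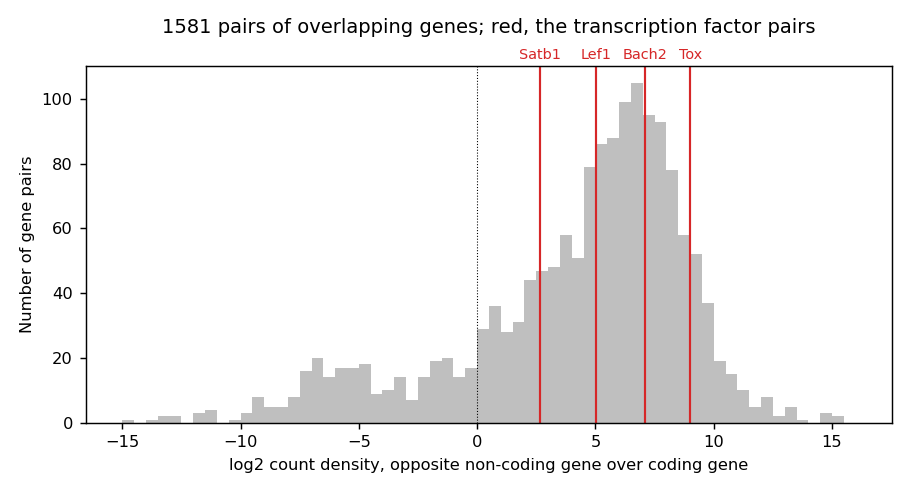
Number of gene pairs by the log2 ratio of count density (counts per exon length, opposite non-coding gene over coding gene) for all 1581 pairs tested, with the factor pairs as red lines and equal density as a dotted line. The red lines at 2.64, 5.01, 7.08 and 9.01 stand on both sides of the median of 5.41.

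The other 4 factors have no exon shared with a non-coding gene. Tcf7 (ENSMUSG00000000782.15, chr11:52252371-52283014, minus strand) had 341, 537, 311 and 195 counts. A630014C17Rik, an antisense gene that covers the Tcf7 start and whose exons lie only in its introns and upstream, had 303, 376, 369 and 261. The values of both genes lay in the same range, and per exon length A630014C17Rik was the denser in 2 of 4 libraries, with a mean log2 ratio of -0.19 ± 0.42 (SD, n = 4). Ets1 (ENSMUSG00000032035.15, chr9:32636221-32757820, plus strand) had 216, 430, 335 and 197 counts, and Gm27240, an antisense gene of 677 exon bases inside an Ets1 intron, had 72, 119, 80 and 73. Gm27240 was lower in count in each library and denser in each, by a mean log2 of 1.92 ± 0.28 (SD, n = 4). With 4 libraries an exact sign-flip permutation (two-sided) cannot go below p = 0.125, the value for Ets1, and for Tcf7 it gave p = 0.5.

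Bcl11b (ENSMUSG00000048251.15, chr12:107910403-108003602, minus strand) and Id3 (ENSMUSG00000007872.3, chr4:136143497-136145755, plus strand) have no gene on the other strand within 5 kb, so their counts have no annotated opposite gene to be set against. Bcl11b had 94, 146, 99 and 61 counts, all well above the limit that a count of 0 allows. Id3, the short-lived inhibitor of E proteins, had 0, 2, 3 and 0 counts, at or below that limit of 3 in every library. Its presence was therefore not detectable from these counts. The part of depth and of the strand setting in this was not tested.

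Other genes on the same strand inside the factor genes were nearly empty. Within Satb1, 5 small genes had 0 to 11 counts summed over the libraries. Gm42449 inside Lef1 had 11 and Bach2it1 inside Bach2 had 15. Gm26551, a long intergenic gene whose end reaches Tcf7, had 28, 27, 5 and 7.

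On their own strands the 8 factors spanned a wide range. Tcf7 led with 99.1 ± 26.5 TPM (SD, n = 4), above 98.0% of the 21764 protein-coding genes. Ets1 followed at 26.6 ± 7.18 and Lef1 at 26.2 ± 3.76 TPM. Satb1 had 10.4 ± 2.37 and Bcl11b 9.35 ± 1.97 TPM, each at about the 90th percentile. Bach2 had 3.84 ± 1.64, Tox 1.31 ± 0.922 and Id3 0.509 ± 0.626 TPM. Beside these, the median protein-coding gene had 0.144 TPM, and 7390 of 21764, or 34.0%, reached 1 TPM, which 7 of the 8 factors did.

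Neighbours in that order were compared within each library as log2(TPM + 0.1). Tcf7 exceeded Ets1 by 1.90 ± 0.35, Lef1 exceeded Satb1 by 1.34 ± 0.26, Bcl11b exceeded Bach2 by 1.32 ± 0.26 and Bach2 exceeded Tox by 1.64 ± 0.70 (SD, n = 4), each in 4 of 4 libraries. Satb1 was above Bcl11b in 4 of 4 as well, but by only 0.15 ± 0.08. For these 5 of 7 neighbours the exact two-sided sign-flip permutation gave p = 0.125, the smallest it can give. Ets1 and Lef1 did not differ beyond their spread, with -0.01 ± 0.41 and exact permutation p = 1, since Lef1 was higher in replicate 1 and Ets1 in the other libraries. Tox and Id3 did not either, with 1.86 ± 1.80 and exact permutation p = 0.25.

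**Figure D4:**
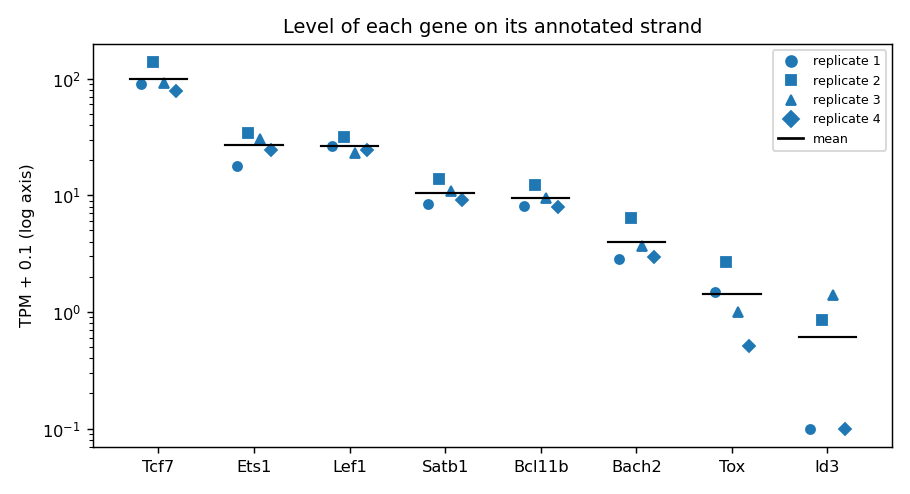
Level of the 8 factor genes on their annotated strand, as TPM plus 0.1 on a log axis, for 4 libraries by shape and with the mean as a bar. Replicate 2 is highest for every factor except Id3, and Id3 at 0 TPM is drawn at 0.1.

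The levels of the opposite genes are of another order on the same TPM scale. Gm43352 had 841 ± 53.2, Gm11802 667 ± 37.4, Bach2os 505 ± 52.2 and Gm6934 64.8 ± 12.03 TPM (SD, n = 4), while Gm27240 had 98.9 ± 20.4 and A630014C17Rik 85.4 ± 10.6. Gm43352, Gm11802 and Bach2os exceeded the highest factor, Tcf7, and relative to the mean each spread less than the factor opposite to it. Each also had far more counts than that factor. Their coefficients of variation were 8.15%, 6.63% and 12.9%, where genes of like count had medians of 8.71%, 10.8% and 9.33%.

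Replicate 2 was highest for 7 of the 8 factors. Their counts summed to 594, 863, 694 and 585 CPM in replicates 1 to 4, or 684 ± 129 (SD, n = 4). The 4 opposite genes together gave 2913, 2652, 2793 and 2851 CPM, where replicate 2 was lowest and the spread was only ± 111 around 2802. Protein-coding genes without an opposite gene within 5 kb, 9609 besides the factors, moved with the factors: they held 2.78%, 3.81%, 3.35% and 2.92% of all counts. Set against the counts of those genes, which do not include the factors, the factor counts came to 2.14%, 2.26%, 2.07% and 2.00%, or 2.12 ± 0.111% (SD, n = 4). Replicate 2 also gave the largest share to the ribosomal RNA locus with the most counts, 16.8%, and without that locus the factors had 638, 1037, 719 and 669 CPM. The part of depth and of this locus in the difference was not tested beyond those values, and in bulk RNA a larger share of cells and more RNA per cell cannot be told apart.

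**Figure D5:**
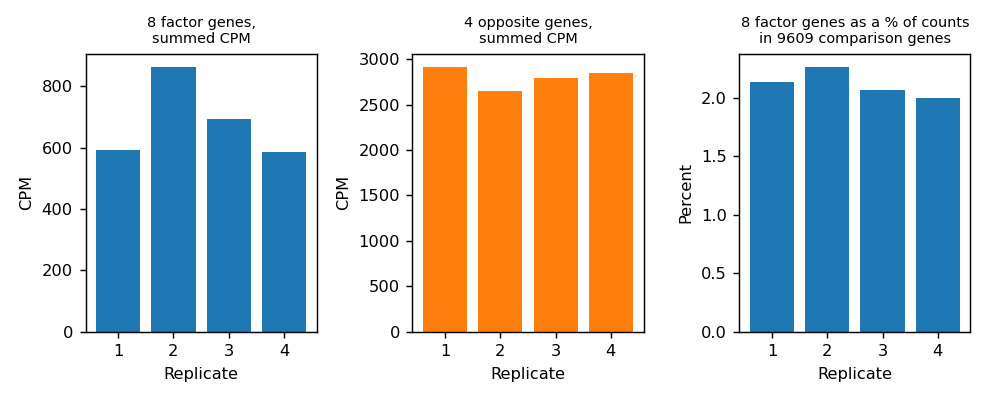
Summed CPM of the 8 factor genes (left, blue) and of the 4 opposite genes (middle, orange), and the factor counts as a percent of the counts in 9609 protein-coding genes without a nearby opposite gene (right), as bars from 0 by replicate. The left panel peaks in replicate 2 at 863 CPM, the middle panel is lowest there at 2652, and the right panel stays between 2.00 and 2.26%.

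Whether a factor varied between libraries more than genes of like count was tested with edgeR over 5755 genes, which 6 of the 8 passed into, Tox and Id3 being too low. None of the 6 was called, beside 0.278% (16) of all genes tested, and 2 of the 6 had an unadjusted p under 0.05, as had 285 of the 5755. In simulated data this test recovered only 46% of genes made far more variable, so the lack of a call does not show an ordinary spread. Ets1 had a coefficient of variation of 25.2%, where genes of like count had a median of 12.5%, with an edgeR unadjusted p of 0.024 and an adjusted p of 0.892. For Tcf7 the coefficient was 25.7% against 12.7%, with an edgeR unadjusted p of 0.032 and an adjusted p of 0.952. Without replicate 2 the edgeR unadjusted p of Tcf7 was 0.83, and without replicate 1 that of Ets1 was 0.40. Among the 6 opposite genes, Gm11802 was the steadiest with 6.63% against a median of 10.8%.

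Genes whose level was most like that of Tcf7 in the 4 libraries, by the root mean square difference of log2(TPM + 0.1) over 16966 genes, were Cabp7 with 0.131, Arhgap45 with 0.135 and Rpl26 with 0.137. Their means were 99.4 ± 17.2, 108 ± 29.9 and 106 ± 23.0 TPM (SD, n = 4). For Gm43352 they were Gm17139 with 0.0664, Gm37539 with 0.0741 and Gm16573 with 0.0802, all non-coding and all sharing exon bases with another gene on the opposite strand. Likeness over 4 libraries of 1 group mostly reflects a like mean.

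Related genes give the setting. Of the 16 paralogs of the factors, 8 reached 1 TPM and 5 had no count, with a median of 0.861 TPM. The highest were Tox4, a phosphatase-complex relative of Tox, with 142 ± 8.36 TPM and Gabpa, an ETS factor, with 65.8 ± 7.48 (SD, n = 4). Both share exon bases with a protein-coding gene of the other strand, Mettl3 with 49.9 ± 3.51 and Atp5j with 60.0 ± 8.24 TPM. The lowest were Id1 and Id4, both at 0 counts, as were Bcl11a and Tox2. Of the paralogs only Tcf7l1 had a pair that could be tested, and there the antisense Gm15401 was 6.73-fold denser (log2 2.75, edgeR adjusted p = 0.0025).

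Among 19 partners, the cofactors with which these factors act, 12 reached 1 TPM, with a median of 3.20. Mta2 with 17.4 ± 2.96 TPM, a subunit of the NuRD complex that Bcl11b recruits, and Aes (also Tle5) with 15.7 ± 4.87 were highest. Tcf4 had 4 counts in all and Tle2 none. In the 4 partner pairs tested the opposite gene was denser, by a log2 of 4.96 for Gm47205 over Bcl9l, 5.50 for Gm11250 over Tle1 and 9.43 for Gm26626 over Runx1, the factor that acts with Cbfb. Opposite to Tle2, Gm15917 had 50 counts.

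The 15 other regulators of naive and quiescent T cells lay at a median of 3.63 TPM, and 12 reached 1 TPM. Btg1, an antiproliferative gene, had 28.2 ± 4.42 and Ikzf1 had 19.9 ± 4.62 TPM, whereas Gfi1 had 0.806 ± 0.254 and Tsc1 0.568 ± 0.083. Of the 9 pairs tested 7 were denser on the opposite strand, from a log2 of 4.32 for Gfi1 and 4.99 for Klf3 over 6.34 for Gata3, 6.99 for Themis, 7.50 for Myb and 7.82 for Klf7 to 9.07 for Foxo1, which drives Klf2 and the homing receptors. The exceptions were Zbtb7b, which sets the CD4 lineage, and Zeb1, a zinc-finger repressor. Zbtb7b was denser than its antisense gene Gm15417 (log2 -0.99, edgeR adjusted p = 0.015), with 344 counts against 52 over all libraries. Zeb1 was denser than Gm10125 (log2 -2.24, edgeR adjusted p = 0.00025), with 204 against 32.

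Of the 13 effector regulators 5 reached 1 TPM, with a median of 0.308. That share is 38.5%, beside 34.0% of all protein-coding genes, whose median was 0.144 TPM. The highest value was that of Foxp3, the factor of regulatory T cells, with 199 ± 4.99 TPM. Foxp3 shares 590 exon bases with Ccdc22, a protein-coding gene of the other strand that had 4.23 ± 2.93 TPM. Whether the fragments counted for Foxp3 come from Foxp3 or from Ccdc22 was not tested. The non-coding opposite gene of Foxp3, Gm36995, had 0 counts, against 4104 for Foxp3 over all libraries. Batf was next with 5.17 ± 1.495 TPM, and Tbx21, the factor of T-helper 1 cells, had 0 counts. In the other 5 pairs tested the opposite gene was denser, with a log2 of 3.29 for Bhlhe40, 5.08 for Eomes, 7.68 for Hif1a and 7.98 for Maf, and with 36 counts against 1 for Rora.

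Surface genes of naive cells had the highest median of the 5 related lists, with 9 of 11 at 1 TPM or more and a median of 22.7. Cd27 had 130 ± 24.3 TPM and overlaps an opposite-strand gene without sharing exon bases, and the interleukin-7 receptor gene Il7r, with none nearby, had 37.4 ± 10.8. Il2rb had 0.962 ± 0.302 and Cd44, a marker of antigen-experienced cells, 0.557 ± 0.709 TPM. The only pair tested was Dpp4, where Gm13561 was denser by a log2 of 4.27 (edgeR adjusted p = 9.0e-08). Over these 5 related lists together, without the 8 factors, 21 pairs were tested, of which 18 were denser on the opposite strand and 3 on the coding strand, near the 78.2% and 13.5% of all pairs, and their median log2 of 5.50 was close to the 5.41 of all pairs.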

How the data were processed

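Total RNA was sequenced from 4 samples labelled T-helper 2 cells, and 1 table of gene counts per sample was analysed. The values are raw fragment counts, which the authors made, per the file headers, with featureCounts 1.4.6-p4 over GENCODE release 13 exons on mm10, with strand setting 1 and both ends required. The path in the headers names a STAR alignment and a paired-end stranded pipeline, and trimming is not given in the sources used here. The exon length per gene is also from the deposited tables. No column of another sample was present.

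Exon positions, from which the pairs and overlaps were made, came like the exon lengths with the deposited counts. Symbols were matched by identifier for 50376 of 50600 genes. Gene types and coding parts came from GENCODE release 21, where all 8 factors have unchanged bounds. The factors and all gene lists were chosen with earlier results of these data known. CPM and TPM were computed here. The opposite gene of a protein-coding gene was the non-coding gene of the other strand with the largest exon overlap (bedtools 2.31.1), which gave 2448 pairs. Of these, 1581 with at least 20 counts were tested with edgeR 4.0.16 in R 4.3.3, with library as a block and library total and exon length in the offset. Some opposite genes belonged to more than 1 pair, so the tested pairs held 118 fewer distinct opposite genes than pairs. Spread was tested with an edgeR intercept-only fit after filterByExpr and TMM, by an upper-tail F test of quasi-dispersion, and all edgeR p-values were adjusted over all rows at 0.05. List genes counted as detected from a mean TPM of 1. Named were all factors, their opposite or nearest opposite genes, the 2 highest and the 2 lowest of each related list, list genes that passed the strand test, and the 3 genes nearest in pattern. Same-strand genes within the factors, genes opposite to Tox4, Gabpa and Foxp3, other list genes at 0 and single cell type markers were named after their values were seen. Tested on simulated data, the strand test recovered 94% of 200 pairs changed 4-fold among 1581, with 4.57% of calls false. The spread test recovered 46% of 200 well-counted genes that were made far more variable than the rest, among 6301. No library was a copy of another (chi-square of 6.29 to 24.8 per degree of freedom). Alternatives were limma 3.58.1, DESeq2 1.42.0, other scalings, filters, overlaps and pseudocounts, and leaving out each library. Some genes that the naming rule or the lists took are not reported here.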

Additional observations from a re-analysis of the deposited data

Results flagged for a closer look

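Of 20 sets of 4 library values tested for a value far from the others (CPM of each factor and opposite gene, and their log2 density ratios), 2 were flagged, where chance flags about 1 in 20. Gm43352 had 1888 CPM in replicate 1, whereas the other libraries had 1631 to 1656. The log2 density of Gm43352 over Lef1 was 4.75 in replicate 2, below the 5.06 to 5.12 of the other libraries. Both values involve the pair with the most counts and the smallest spread, and neither changed the call for Lef1.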

How the results depend on the processing

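The 4 factor pairs were called denser on the opposite strand under every alternative run. Over the alternatives, the fewest pairs called denser on the opposite strand were 1057 of 1319 tested, with an overlap of at least 100 bases. The most were 1265 of 1906 with no filter, beside 1236 of 1581 in the main test. On the coding strand the calls ranged from 167 of 1358, in pairs of at least 80 counts, to 216 of 1581 by limma. Because the number tested differed, these ranges also follow the filters. The log2 ratio without 1 replicate ranged from 2.48 to 2.85 for Satb1, 4.97 to 5.10 for Lef1, 6.91 to 7.39 for Bach2 and 8.72 to 9.44 for Tox, highest in each case without replicate 2, and the largest adjusted p by limma was 0.00021, for Satb1. The count of genes more variable than genes of like count was 16 with all libraries and 7 to 10 when 1 replicate was left out: 7 without replicate 1, 9 without replicate 2, 10 without replicate 3 and 8 without replicate 4. No factor was called as more variable in any alternative, including the one with no filter, where all 8 were tested. The other 46 recomputed values that answer a comparison are counts of pairs or genes, and they stayed within a fixed ratio of the main count. The 172 of single genes or pairs kept their direction and call, or stayed within 1 SD where there was no test. The pseudocount moved the size of the lowest steps in level: with 1 TPM and 0.01 TPM Bach2 exceeded Tox by a log2 of 1.09 and 1.74, and Tox exceeded Id3 by 0.63 and 3.44. Leaving out the gene with the most counts, a choice made after seeing the data, left the order of the factors by mean TPM as it was. No level can be set for Id3 or for the library of Tox at 3 counts. No paired analysis was possible because the study has 1 group, so no groups share replicate numbers; the strand comparison already holds the library as a block.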
